A study of Homo sapiens with 24 samples.

Results

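TXNIP, ARRDC4 and 5 related genes were followed through every library of 2 RNA-seq experiments in LNCaP, an androgen-sensitive human prostate adenocarcinoma cell line that carries a mutated androgen receptor. The 7 genes were taken by symbol: the alpha-arrestins TXNIP, ARRDC2, ARRDC3 and ARRDC4, and the transcription factors MLX, MLXIP and MLXIPL. All 7 were found among the 22227 genes of the ligand tables and among the 23028 genes of the siRNA tables, and all 7 passed the filters on low values. They were chosen with earlier results of these libraries known, among them the lower ARRDC4 level after 4 h of enzalutamide. For that reason every comparison that includes the enzalutamide 4 h libraries is given here as a description with no test. Those libraries still entered the shared fit, and so the estimate of spread, behind the other ligand comparisons. The adjusted p-values elsewhere come from fits over all genes and are not independent evidence for the choice of genes.

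Alpha-arrestins are membrane-associated adaptor proteins that bring ubiquitin ligases of the NEDD4 family to receptors and transporters. TXNIP also binds thioredoxin, and TXNIP and ARRDC4 lower glucose uptake by acting on glucose transporters. Their genes are classic targets of MondoA (encoded by MLXIP) and ChREBP (encoded by MLXIPL), which respond to phosphorylated glucose, pair with MLX and bind carbohydrate response elements.

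In the ligand experiment the cells are taken to have been kept for 3 days in medium with charcoal-stripped serum. The published methods state that period for ChIP and none for RNA-seq. The cells were then given vehicle, 10 nM of the androgen dihydrotestosterone (DHT) or 10 μM of the androgen receptor antagonist enzalutamide, for 4 or 24 h. Each of the 5 conditions had 2 libraries after vehicle columns with the same replicate number were summed, and the vehicle time is not given. In the siRNA experiment cells received a non-targeting siRNA (siControl) or siRNA against the transcription factor GATA2 (siGATA2), and from 72 h later were treated for 24 h with vehicle or enzalutamide at 25 μM, with 3 libraries in each of 4 conditions. The study asked which genes enzalutamide regulates and whether GATA2 takes part in that regulation.

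The ligand libraries held between 38894876 and 59985287 estimated counts. They are given as counts scaled to effective library size (CPM), and for the 7 genes the counts in a library ran from 123 for MLXIPL to 25580 for TXNIP. The siRNA tables hold RPKM, which is scaled by gene length, so levels of different genes are compared only there. The absolute depth of these libraries is unknown. Their relative depth, estimated from genes at very low values, ran from 0.835 to 1.091 of that of siControl vehicle replicate 1. A gene was called when its Benjamini-Hochberg adjusted p, over all 15555 genes tested in the ligand experiment (edgeR) or all 20369 in the siRNA experiment (limma), was below 0.05. The labels call the libraries biological replicates without saying how they were separated, so the p-values measure the spread between these samples.

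The 2 enzalutamide 4 h libraries differed most from each other: their mean chi-square per gene was 9.83, against 2.28 for enzalutamide 24 h, 2.03 for DHT 4 h and 4.57 for DHT 24 h. Vehicle samples are labelled as 4 replicates, while 3 of the 4 columns carry replicate number 1. Between columns of that number the chi-square was 1.53 to 1.56, above the 1 that sampling of a single library would give, and it was 3.56 to 3.74 against the column with the other number. The column headers carry 3 prefixes whose meaning is not given. The first held both DHT 4 h libraries and both vehicle replicates, the second both enzalutamide 4 h libraries and DHT 24 h replicate 1, and the third both enzalutamide 24 h libraries and DHT 24 h replicate 2, with a column of vehicle replicate 1 in each of the last 2. Values against vehicle of the same prefix stand below. DHT 24 h against 4 h, enzalutamide 24 h against 4 h and DHT against enzalutamide at 4 h cannot be read within a prefix. In each of them the compared groups share no prefix, so treatment and prefix cannot be told apart.

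The labels were checked on genes with known behaviour. KLK3, which encodes prostate-specific antigen and is induced by androgens, was at 259 and 254 CPM in vehicle, 609 and 631 after DHT for 4 h, 2100 and 2140 after DHT for 24 h, and 109 and 111 after enzalutamide for 24 h. In the enzalutamide 4 h libraries KLK3 was at 224 and 194 CPM, nearer to vehicle than at 24 h. GATA2 was at 83.8, 77.0 and 86.1 RPKM in siControl vehicle libraries and at 54.3, 53.4 and 46.6 in siGATA2 vehicle libraries. Under enzalutamide GATA2 was at 128, 132 and 128 RPKM in siControl cells and at 60.1, 64.7 and 61.5 in siGATA2 cells. All siGATA2 libraries were below all siControl libraries, and GATA2 RNA was reduced, not absent (log2 fold change in vehicle −0.68, SE 0.0594, limma adjusted p = 3.12e-06).

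Per length, the 7 genes spanned a wide range of levels. Averaged over the 12 siRNA libraries, TXNIP was at 114 RPKM, above 98.0% of the genes tested, and ARRDC4 at 3.01 RPKM, above 51.8%. Between them lay MLX at 29.4, ARRDC3 at 20.4, MLXIP at 11.8 and ARRDC2 at 5.56 RPKM, and MLXIPL was lowest at 0.935 RPKM. These means pool the conditions: in siControl vehicle alone ARRDC3 and MLXIP averaged 17.3 and 16.8 RPKM. LNCaP cells thus held much more RNA of MLXIP, the MondoA gene, than of MLXIPL, the ChREBP gene.

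The first promoter window of each of the 3 arrestin genes with the largest changes is shown because carbohydrate response elements are defined by their letters. RefSeq gives 10 windows of 250 bases upstream of annotated starts for the 7 genes, 1 for each of 4 genes and 2 for each of the other 3. Coordinates are of GRCh38.p14, whereas the deposited values were made on hg19. Capitals mark matches on either strand to the motifs named next. The second windows of TXNIP and ARRDC3 held no match and are not printed.
TXNIP, chr1:145996580-145996829, minus strand: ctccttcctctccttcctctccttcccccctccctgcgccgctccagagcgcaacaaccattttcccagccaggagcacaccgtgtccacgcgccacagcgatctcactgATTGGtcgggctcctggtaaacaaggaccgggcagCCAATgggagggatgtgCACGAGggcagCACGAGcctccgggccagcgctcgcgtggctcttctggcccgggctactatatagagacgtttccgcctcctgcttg
ARRDC4, chr15:97960453-97960702, plus strand: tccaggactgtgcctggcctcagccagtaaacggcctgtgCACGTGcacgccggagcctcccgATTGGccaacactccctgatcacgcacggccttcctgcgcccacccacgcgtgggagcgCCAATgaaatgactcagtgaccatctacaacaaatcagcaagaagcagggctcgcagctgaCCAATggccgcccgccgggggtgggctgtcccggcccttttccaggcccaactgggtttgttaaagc
ARRDC3, chr5:91383318-91383567, minus strand: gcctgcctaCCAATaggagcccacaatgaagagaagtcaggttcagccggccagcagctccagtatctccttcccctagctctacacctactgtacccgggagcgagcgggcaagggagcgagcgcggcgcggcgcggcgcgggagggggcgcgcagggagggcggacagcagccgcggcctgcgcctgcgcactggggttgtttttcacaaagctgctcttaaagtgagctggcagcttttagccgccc

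The TXNIP window held a pair of CACGAG elements 5 bases apart, at −88 to −83 and −77 to −72 from the start, which match the spaced pattern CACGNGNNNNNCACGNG of a carbohydrate response element. That pattern was found in 16 of 35116 promoter windows (0.0456%) searched on both strands, and its matches overlap those of CACGAG alone, found in 5.58%. ARRDC4 held no spaced pair in this window and 1 CACGTG (E-box) at −210 to −205. MLX held a CACGTG at −50 to −45, and 6.34% of all windows held one. CCAAT, the NF-Y box, was present in windows of TXNIP, ARRDC2, ARRDC3, ARRDC4, MLX and MLXIP and in 32% of all windows. The letters AGAACA (in 12.4% of windows) are a single arm of an androgen response element, and AGATAA (in 9.17%) a single form of a GATA site. Neither was in any of the 10 windows, and other forms of these sites were not searched for. A match is a description of the letters and not a measured site.

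**Figure D1:**
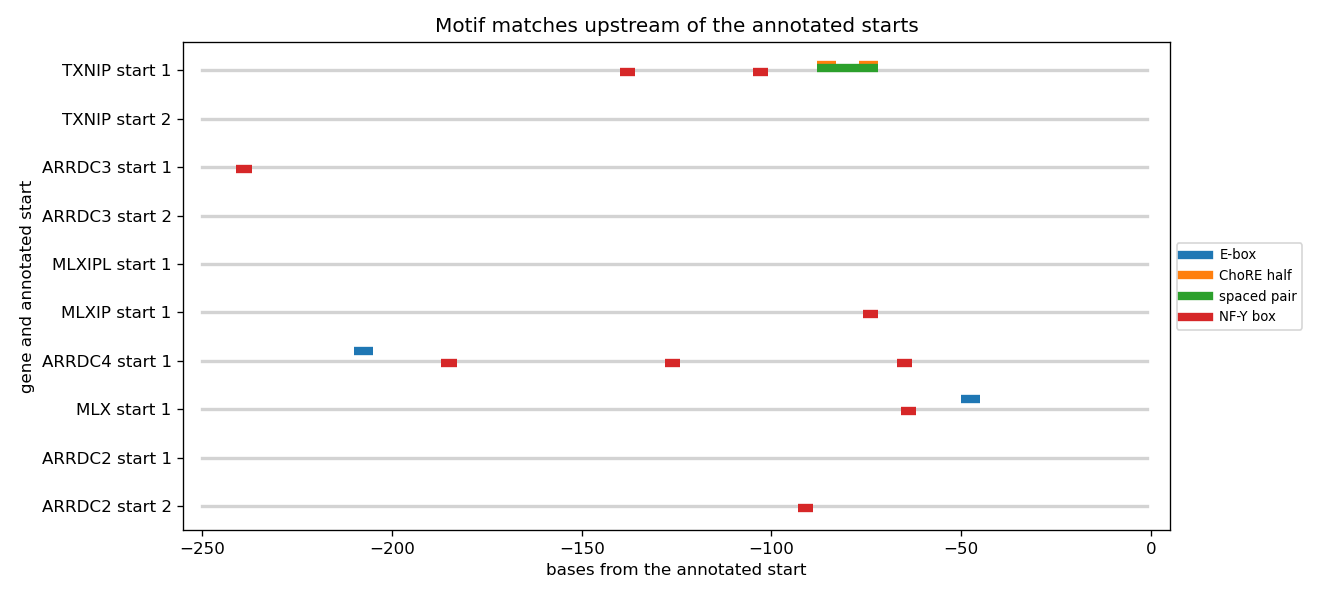
Positions of motif matches in the 10 promoter windows of the 7 genes. The horizontal axis is the distance in bases from the annotated start, each line is a window, and coloured bars are matches: the spaced pair lies at −88 to −72 in the first TXNIP window, and E-boxes lie in the ARRDC4 and MLX windows.

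In vehicle, TXNIP stood at 423 and 410 CPM. It was at 257 and 249 CPM after enzalutamide for 4 h and at 441 and 443 CPM after enzalutamide for 24 h. DHT gave 378 and 382 CPM at 4 h and 241 and 234 CPM at 24 h. Thus both enzalutamide 4 h libraries and both DHT 24 h libraries were low, and no library of either group overlapped vehicle. From high to low the mean levels ran enzalutamide 24 h, vehicle, DHT 4 h, enzalutamide 4 h and DHT 24 h, and the first neighbours in that order did not differ past the threshold. In bulk RNA, fewer cells of a type and less RNA per cell cannot be told apart.

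ARRDC4, a close relative of TXNIP, was low in the same conditions. Its levels were 45.5 and 44.6 CPM in vehicle, 25.9 and 27.2 after enzalutamide for 4 h, and 43.3 and 43.3 after enzalutamide for 24 h. After DHT they were 39.0 and 38.1 CPM at 4 h and 31.7 and 29.1 CPM at 24 h. The enzalutamide 4 h libraries were lowest, DHT 24 h next, and neither overlapped any other condition. Vehicle and enzalutamide 24 h were the highest neighbours and did not differ past the threshold.

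ARRDC3, an alpha-arrestin that acts on adrenergic receptors, had a different profile. It was at 216 and 211 CPM in vehicle, 234 and 242 after enzalutamide for 4 h, and 245 and 241 after enzalutamide for 24 h. With DHT it was at 160 and 157 CPM at 4 h and at 99.0 and 92.3 CPM at 24 h. Both DHT times lay under vehicle without overlap, and both enzalutamide times lay above it. ARRDC2, a less studied relative, ranged from 4.61 to 8.06 CPM, with its lowest values, 4.61 and 4.88, in the enzalutamide 4 h libraries.

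The largest log2 fold change of a transcription factor gene against vehicle was 0.37, for MLX after DHT for 24 h. TXNIP, ARRDC3 and ARRDC4 reached −0.81, −1.16 and −0.76. ARRDC2, at −0.43 after enzalutamide for 4 h, was not called in any tested ligand comparison. MLX, the shared partner, was at 82.7 and 82.6 CPM in vehicle and at 107 and 106 CPM after DHT for 24 h, the only condition above vehicle. MLXIP lay between 119 and 129 CPM and MLXIPL between 2.71 and 4.26 CPM in all 10 libraries.

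**Figure D2:**
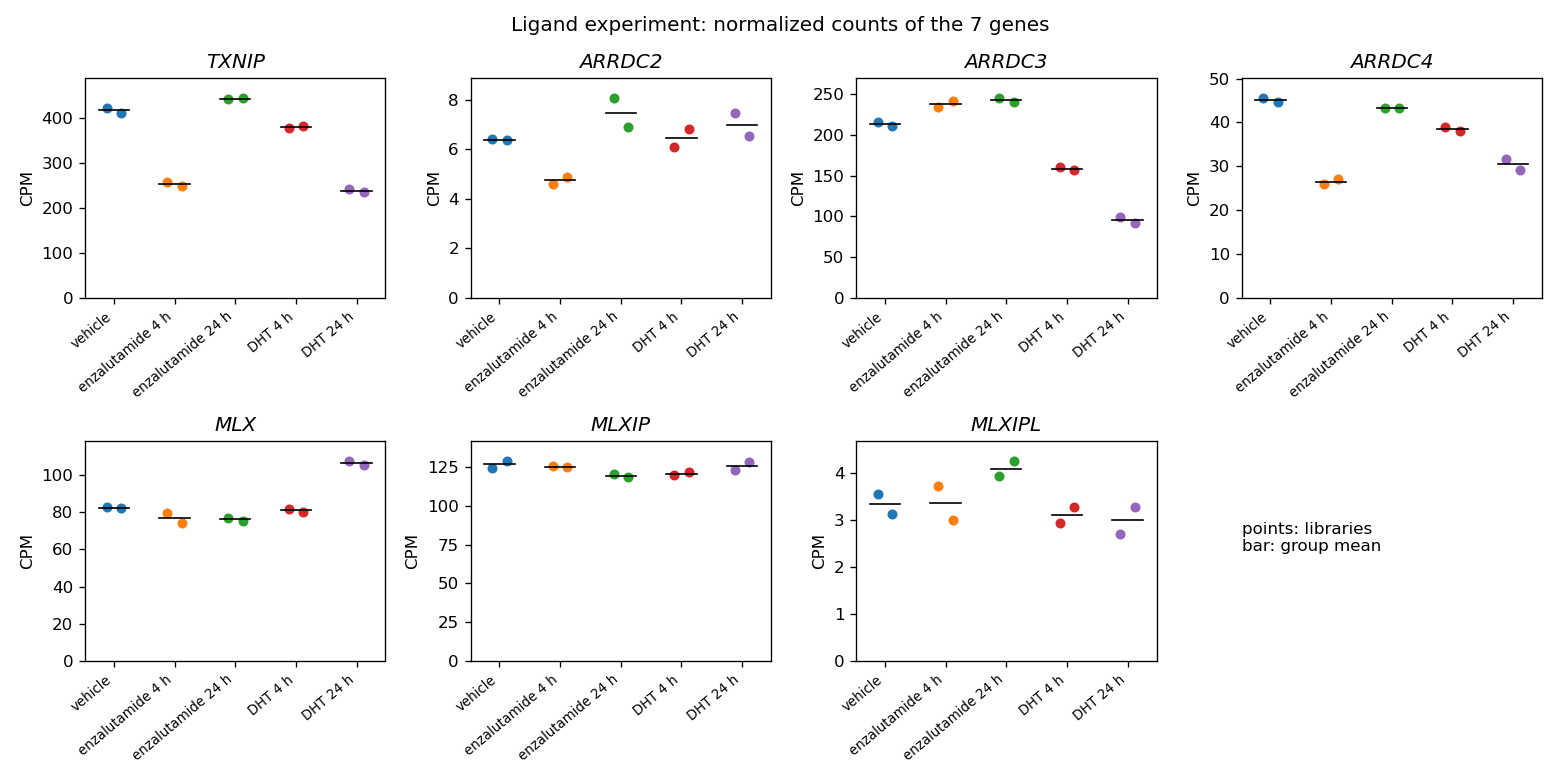
Normalized counts (CPM) of the 7 genes in the ligand experiment; points are libraries, bars are group means and each axis starts at 0. TXNIP and ARRDC4 were lowest after enzalutamide for 4 h and DHT for 24 h, ARRDC3 fell at both DHT times, and MLX was highest after DHT for 24 h.

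In the enzalutamide 4 h libraries the log2 fold changes against vehicle were −0.76 for ARRDC4 (SE 0.0522) and −0.72 for TXNIP (SE 0.0326). Those of the other genes were −0.43 for ARRDC2 (SE 0.113), 0.16 for ARRDC3 (SE 0.0384), −0.10 for MLX, −0.02 for MLXIP and −0.01 for MLXIPL. Leaving out single libraries gave −0.16 to −0.06 for MLX and −0.17 to 0.15 for MLXIPL. Within the header prefix of these libraries the values were −0.73 and −0.78 for TXNIP and −0.82 and −0.75 for ARRDC4. DHT 4 h lay above enzalutamide 4 h by 0.59 for TXNIP and 0.54 for ARRDC4 on the log2 scale, and below it by −0.59 for ARRDC3. Enzalutamide 24 h lay above enzalutamide 4 h by 0.80 for TXNIP and 0.71 for ARRDC4. These values describe a contrast that chose a member and carry no test.

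By 24 h of 10 μM enzalutamide, TXNIP and ARRDC4 were near vehicle. Of the 7 genes, 1 was higher and 1 lower than vehicle, against 16.4% higher and 17.0% lower of all genes tested, so the share was near the background. ARRDC3 was higher (log2 fold change 0.19, SE 0.0383, edgeR adjusted p = 0.00231, in 2 of 2 libraries). MLX was lower by −0.12 (SE 0.042, edgeR adjusted p = 0.0489). That MLX call ended in several alternatives, among them without either vehicle, either DHT 4 h or either enzalutamide 24 h replicate (adjusted p 0.0602 to 0.188), with library size alone (0.0572) and with vehicle replicate 1 from the first (0.11) or last (0.054) prefix alone. MLXIP, not called (−0.08, SE 0.0367, adjusted p = 0.0983), was called with vehicle replicate 1 from the last prefix alone, with RLE factors, with only the conditions compared and without enzalutamide 4 h replicate 2 (0.0477 to 0.0499). TXNIP differed by 0.09 (SE 0.0322, edgeR adjusted p = 0.0549) and was called without enzalutamide 4 h replicate 1 (0.0311). ARRDC4 differed by −0.06 (SE 0.0498, edgeR adjusted p = 0.406), and within the prefix the values were 0.06 and 0.07 for TXNIP, −0.07 and −0.07 for ARRDC4, 0.18 and 0.15 for ARRDC3 and −0.11 and −0.14 for MLX.

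After 4 h of DHT the arrestin genes TXNIP, ARRDC3 and ARRDC4 were lower than vehicle and no member was higher, against 2.11% lower and 4.66% higher of all genes. ARRDC3 fell by 0.43 on the log2 scale (SE 0.0387, edgeR adjusted p = 6.87e-06). ARRDC4 fell by 0.23 (SE 0.0499, edgeR adjusted p = 0.0135) and TXNIP by 0.13 (SE 0.0322, edgeR adjusted p = 0.0259). Those last calls depended on single libraries: TXNIP was not called without either vehicle, either DHT 4 h or either enzalutamide 24 h replicate (adjusted p 0.0602 to 0.264). ARRDC4 was not called without either vehicle or either DHT 4 h replicate (0.0596 to 0.164). Within the prefix the differences were −0.15 to −0.10 for TXNIP, −0.25 to −0.19 for ARRDC4 and −0.45 to −0.40 for ARRDC3.

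After 24 h of DHT the same arrestin genes were lower, with larger differences, and MLX was higher. That made 3 of 7 lower, against 23.2% of all genes, and 1 of 7 higher, against 26.9%. ARRDC3 fell by 1.16 (SE 0.0398, edgeR adjusted p = 1.16e-10), TXNIP by 0.81 (SE 0.0327, adjusted p = 5.72e-10) and ARRDC4 by 0.56 (SE 0.0514, adjusted p = 1.11e-06). MLX rose by 0.37 (SE 0.0416, adjusted p = 8.39e-06). Each of these differences had its direction in 2 of 2 libraries. The prefix values were −0.82 and −0.86 for TXNIP, −0.53 and −0.64 for ARRDC4, −1.15 and −1.23 for ARRDC3 and 0.34 and 0.34 for MLX. All of these comparisons share the vehicle libraries.

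Set against each other at 24 h, DHT and enzalutamide differed in 5 members. DHT was lower for 4, against 33.6% of all genes, and higher for 1, against 31.3%. The log2 differences were −1.34 for ARRDC3 (SE 0.0398), −0.90 for TXNIP (SE 0.0327), −0.51 for ARRDC4 (SE 0.0514) and 0.48 for MLX (SE 0.0416), with edgeR adjusted p of at most 1.54e-06. MLXIPL was lower by −0.46 (SE 0.147, edgeR adjusted p = 0.0139), a call lost with DESeq2 (adjusted p = 0.0628), without DHT 24 h replicate 1 (0.161) and without enzalutamide 24 h replicate 2 (0.0924). MLXIP, not called (0.07, SE 0.0368, adjusted p = 0.0911), was called with RLE factors (0.0327), with only the conditions compared (0.0469) and without DHT 24 h replicate 1 (0.0464) or enzalutamide 4 h replicate 2 (0.0441). Between 4 and 24 h of DHT, 3 members were lower, against 23.5% of all genes, and 1 was higher, against 26.3%. ARRDC3 fell by 0.73 (SE 0.0398), TXNIP by 0.68 (SE 0.0326) and ARRDC4 by 0.34 (SE 0.0516), and MLX rose by 0.39 (SE 0.0414, edgeR adjusted p of at most 0.000118 for all 4).

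**Figure D3:**
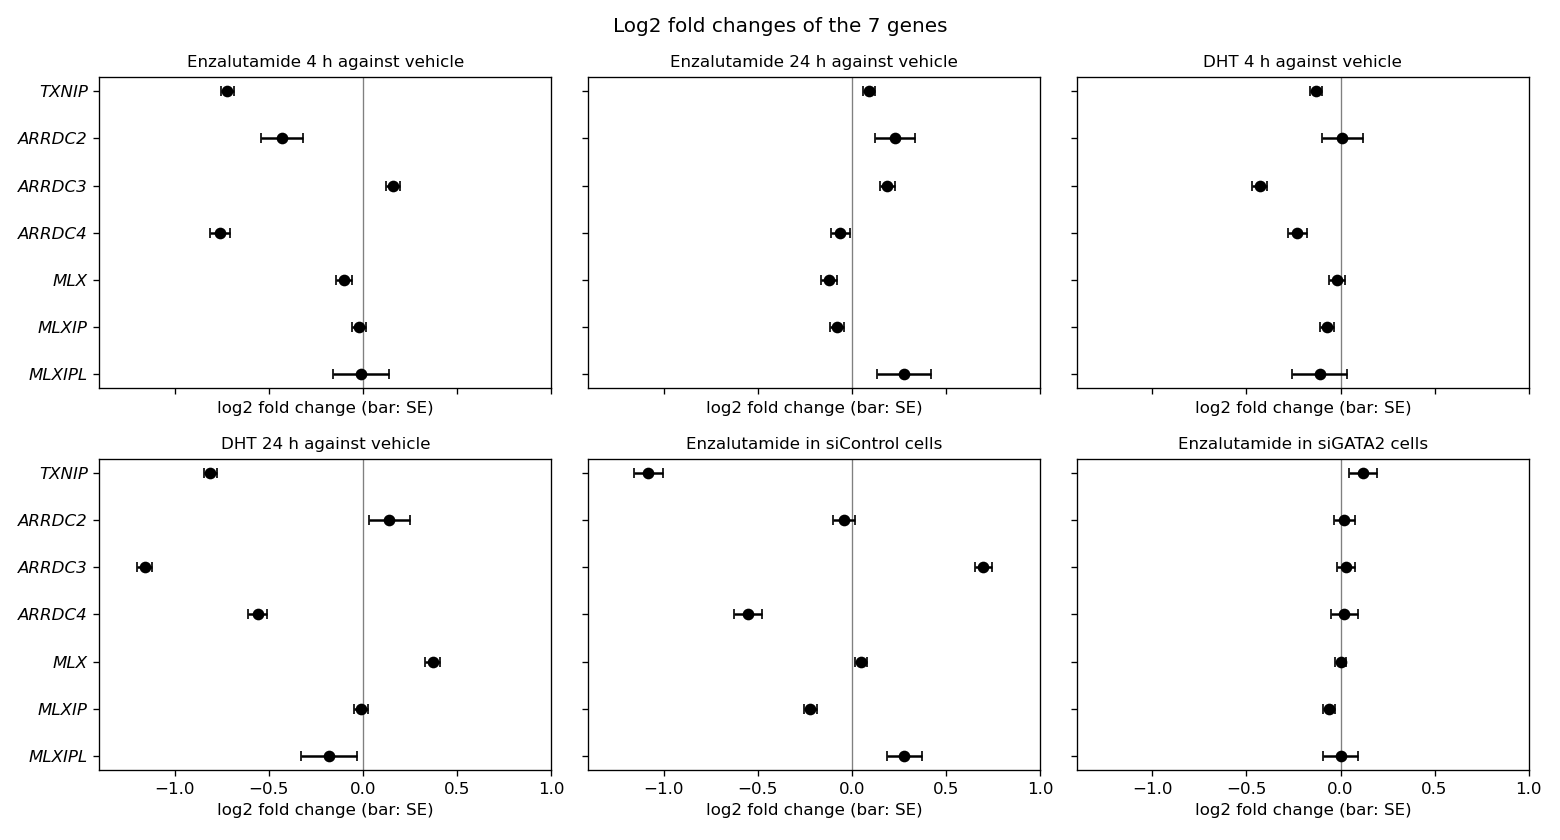
Log2 fold changes of the 7 genes in 6 comparisons; points are estimates and bars their standard errors, and the enzalutamide 4 h panel is a description. The TXNIP estimate was −0.72 after enzalutamide for 4 h, 0.09 at 24 h, −0.81 after DHT for 24 h, −1.08 under enzalutamide in siControl cells and 0.12 in siGATA2 cells.

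In siControl cells, TXNIP was at 121, 127 and 118 RPKM in vehicle and at 59.1, 51.6 and 62.3 RPKM under 25 μM enzalutamide. In siGATA2 cells it was at 137, 143 and 121 RPKM in vehicle and at 146, 150 and 137 RPKM under enzalutamide. The siControl enzalutamide libraries were the low ones and overlapped no other group, whereas the siGATA2 groups overlapped each other and, in vehicle, siControl. From high to low the groups ran siGATA2 enzalutamide, siGATA2 vehicle, siControl vehicle and siControl enzalutamide, of which neither siGATA2 enzalutamide and siGATA2 vehicle nor siGATA2 vehicle and siControl vehicle differed past the threshold. The siGATA2 enzalutamide libraries lay above the siControl vehicle libraries without overlap, and these groups were not compared.

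ARRDC4 was ordered differently. It was at 4.60, 4.88 and 4.26 RPKM in siControl vehicle and at 3.16, 2.88 and 3.23 RPKM in siControl enzalutamide libraries. In siGATA2 cells it was at 2.00, 2.24 and 2.26 RPKM in vehicle and at 2.29, 2.28 and 2.04 RPKM under enzalutamide. Both siGATA2 groups were low and overlapped, while siControl vehicle was highest and overlapped nothing.

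ARRDC3 was at 16.9, 18.8 and 16.3 RPKM in siControl vehicle and at 27.4, 27.9 and 29.5 RPKM under enzalutamide. In siGATA2 cells it was at 17.8, 18 and 17.9 RPKM in vehicle and at 18.7, 18.4 and 17.7 RPKM under enzalutamide. Only the siControl enzalutamide libraries were high, without overlap. ARRDC2 lay between 5.08 and 5.87 RPKM in all 12 libraries and its groups overlapped.

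MLXIP split by siRNA: 16.9, 16.4 and 17.0 RPKM in siControl vehicle, and 8.52, 7.88 and 8.14 in siGATA2 vehicle. Under enzalutamide it was at 14.7, 14.5 and 14.0 RPKM in siControl cells and at 7.93, 7.91 and 7.61 in siGATA2 cells. Every siGATA2 library was thus below every siControl library. MLX lay between 28.1 and 31.6 RPKM. MLXIPL was at 0.961, 0.914 and 1.03 RPKM in siControl vehicle and 1.22, 1.14 and 1.20 under enzalutamide, and between 0.678 and 0.898 in siGATA2 cells.

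**Figure D4:**
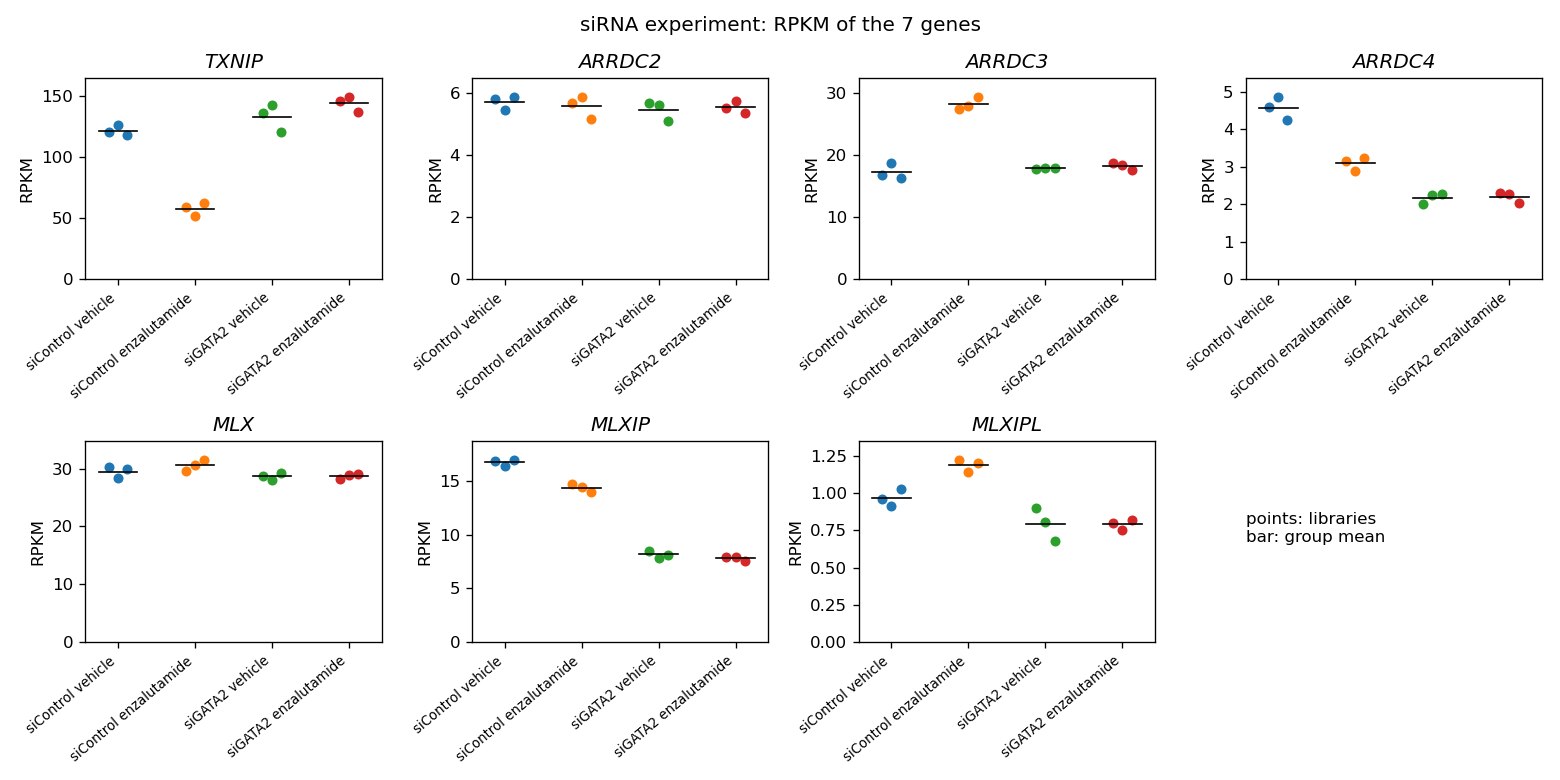
RPKM of the 7 genes in the siRNA experiment; points are libraries, bars are group means and each axis starts at 0. TXNIP was low, at 51.6 to 62.3 RPKM, and ARRDC3 high, at 27.4 to 29.5 RPKM, in siControl enzalutamide libraries, and MLXIP was low in all siGATA2 libraries.

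Under 25 μM enzalutamide in siControl cells, 3 of 7 members were lower, against 24.4% of all genes, and 2 were higher, against 17.7%. TXNIP fell by 1.08 (SE 0.0763, limma adjusted p = 2.11e-06), ARRDC4 by 0.55 (SE 0.0731, adjusted p = 0.000156) and MLXIP by 0.22 (SE 0.0333, adjusted p = 0.000394). ARRDC3 rose by 0.70 (SE 0.0474, limma adjusted p = 1.46e-06) in 3 of 3 libraries. MLXIPL was higher by 0.28 (SE 0.0919, limma adjusted p = 0.0338), a call lost without siControl vehicle replicate 1 or 2 or any siControl enzalutamide replicate (0.0517 to 0.102). The TXNIP value of −1.08 here and 0.09 after 10 μM in the ligand experiment come from different experiments, doses and units and were not compared.

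In siGATA2 cells no member was called by limma, with 0 also at an unadjusted p below 0.05, and 0.221% of all genes were higher and 0.191% lower. The log2 fold changes were 0.12 for TXNIP (SE 0.0763, limma adjusted p = 0.643), 0.02 for ARRDC4 (SE 0.0731) and 0.03 for ARRDC3 (SE 0.0474), and those of the other 4 genes were between −0.06 and 0.02. The 95% interval of the TXNIP value ran from −0.03 to 0.27, and leaving out single libraries gave 0.05 to 0.17.

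The change under enzalutamide differed between siControl and siGATA2 cells for 4 members, as tested by the interaction term. The difference, siGATA2 minus siControl, was positive for 3 members, against 15% of all genes, and negative for 1, against 10.8%. It was 1.20 for TXNIP (SE 0.108, limma adjusted p = 3.72e-05), 0.58 for ARRDC4 (SE 0.103, adjusted p = 0.00263) and −0.67 for ARRDC3 (SE 0.067, adjusted p = 7.24e-05). MLXIP had 0.15 (SE 0.047, limma adjusted p = 0.0354), a call lost without siControl vehicle replicate 1 or 3, siControl enzalutamide replicate 2 or 3, siGATA2 vehicle replicate 2 or 3, or siGATA2 enzalutamide replicate 1 or 2 (0.0556 to 0.0826), with median rescaling (0.0764) and with no variance trend (0.0556). Without siGATA2 vehicle replicate 3, MLXIPL was called at −0.37 (adjusted p = 0.0303).

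In vehicle, siGATA2 cells had less ARRDC4 and MLXIP RNA than siControl cells, and similar amounts of TXNIP RNA. Lower were 3 of 7 members, against 31.4% of all genes, and none was higher, against 24.2%. ARRDC4 was lower by −1.04 (SE 0.0731, limma adjusted p = 5.45e-07) and MLXIP by −1.03 (SE 0.0333, adjusted p = 2.2e-09), each in 3 of 3 libraries. MLXIPL was lower by −0.26 (SE 0.0919, limma adjusted p = 0.0314). That call was lost without siControl vehicle replicate 1 or 3 or siGATA2 vehicle replicate 2 or 3 (limma adjusted p 0.0573 to 0.108). It was also lost with median rescaling (0.0508) and with only the conditions compared (0.0977). Leaving out single libraries gave MLXIPL values of −0.35 to −0.17. TXNIP differed by 0.13 (SE 0.0763, limma adjusted p = 0.184) and was called without siGATA2 vehicle replicate 3 (0.20, adjusted p = 0.044). ARRDC3 was called without siControl vehicle replicate 2 (0.10, adjusted p = 0.028).

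With enzalutamide present, siGATA2 lowered 5 members relative to siControl, against 28.1% of all genes, and 1 was higher, against 26.3%. TXNIP was higher by 1.33 (SE 0.0763, limma adjusted p = 1.27e-07). MLXIP was lower by −0.87 (SE 0.0333), ARRDC3 by −0.63 (SE 0.0474), MLXIPL by −0.54 (SE 0.0919) and ARRDC4 by −0.47 (SE 0.0731), with limma adjusted p of at most 0.0005. MLX was lower by −0.09 (SE 0.0315, adjusted p = 0.0334), which was lost without siControl enzalutamide replicate 2 or 3 or siGATA2 enzalutamide replicate 1 or 2 (0.06 to 0.121) and with no variance trend (0.0597).

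Markers of other cell types were read in the same 12 libraries. Of 14, 11 stayed below 1 RPKM in every library, and CD3E of T cells was at 0 in all 12. The fibroblast list (4 genes, led by COL1A1) summed to 10.7, 9.72 and 10.1 RPKM in siControl vehicle, 13, 12.4 and 11.9 in siControl enzalutamide, 16.3, 15.2 and 12.8 in siGATA2 vehicle and 14.1, 16.0 and 13.9 in siGATA2 enzalutamide libraries. That sum is nearly all COL1A1, with at most 0.114 RPKM from the other 3 genes, of which LUM was called lower by −0.56 with enzalutamide in siControl cells and by −0.78 with siGATA2 in vehicle. COL1A2 and DCN were at 0 in 11 and 9 of the 12. The leukocyte list (3 genes, led by the lysosomal gene CD68) summed to 3.84, 3.54 and 3.83 RPKM, then 4.59, 4.85 and 5.32, then 11.8, 12.2 and 10.5, then 11.5, 11 and 11.1, in the same order. The endothelial list (3 genes, led by VWF) summed to 0.994, 0.954 and 0.969 RPKM, then 0.496, 0.499 and 0.371, then 1.26, 1.3 and 1.26, then 0.861, 0.865 and 0.801, so it was lower with enzalutamide under both siRNAs. The basal list (4 genes) summed to at most 0.14 RPKM: 0.128, 0.127 and 0.082 in siControl vehicle, then 0.0414, 0.035 and 0.00819 with enzalutamide. In siGATA2 cells it was 0.14, 0.129 and 0.0649 in vehicle, then 0.0217, 0.0157 and 0.0519 with enzalutamide. It was thus lower with enzalutamide under both siRNAs, and 1 of 3 tested genes was called lower in siControl cells. With siGATA2 in vehicle 1 was called higher and 1 lower. All 8 luminal markers were present, and they summed to 1500, 1430 and 1480 RPKM in siControl vehicle, 886, 864 and 818 in siControl enzalutamide, 753, 771 and 768 in siGATA2 vehicle and 730, 725 and 736 in siGATA2 enzalutamide libraries. Within that list, in vehicle, siGATA2 cells had less KLK3 (log2 fold change −5.04) and more KRT8, a luminal keratin (0.84). In the ligand experiment, after 24 h of DHT COL1A1 (−0.65) and LUM (−1.18) were lower and CD68 (0.97), VWF (0.40) and the basal keratin gene KRT14 (3.49) were higher, and after 24 h of enzalutamide VWF (−0.87) and LUM (−0.94) were lower. LUM had at most 79 and KRT14 at most 17.9 counts in a ligand library. The part of these shifts in the differences of TXNIP, ARRDC3, ARRDC4 and MLXIP was not tested.

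Across the 10 ligand libraries the log2 levels of TXNIP and ARRDC4 had a Pearson correlation of 0.94, and across the 12 siRNA libraries of −0.26. TXNIP and ARRDC3 gave 0.53 and −0.93, and ARRDC4 and MLXIP −0.38 and 0.93. Libraries of a condition share their treatment, so these values describe the conditions. By the lower of both correlations among 15400 genes, those most like TXNIP were C1RL (0.90 ligand, 0.96 siRNA), CYP51A1-AS1 (0.90, 0.90), SLC22A3 (0.90, 0.89), HDX (0.87, 0.89) and KLHL13 (0.94, 0.87). The most opposite were RGS3 (−0.95, −0.92), MED8 (−0.88, −0.95) and NDEL1 (−0.94, −0.88). Among those most like ARRDC4 were SLC6A11 (0.90, 0.89), MSL3P1 (0.88, 0.86), FUOM (0.86, 0.89) and WDR6 (0.85, 0.88), and the most opposite RNF149 (−0.90, −0.95), CPEB3 (−0.85, −0.87) and UGCG (−0.85, −0.87).

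Other known targets of MondoA and ChREBP were counted in the same comparisons, and for these and the lists that follow the shares of all genes called are those given with the members above. Of 13 tested, 6 rose and 1 fell after 24 h of DHT, against 26.9% and 23.2% of all genes, with a median log2 fold change of 0.13. The median over all genes was between −0.0328 and 0.0149 in each of the 10 tested comparisons. FASN, the fatty acid synthase, rose by 1.06 (SE 0.0426, edgeR adjusted p = 5.5e-10), ACACA, which makes malonyl-CoA, by 0.74 and SCD, a desaturase, by 0.59, while KLF10, a transcriptional repressor, fell by 0.28. After 4 h of DHT 1 rose and 0 fell in edgeR (1 at an unadjusted p below 0.05, median −0.03), and after 24 h of enzalutamide 2 rose and 5 fell (median −0.23), with FASN at −0.59. DHT against enzalutamide at 24 h gave 6 higher and 4 lower (median 0.42), and DHT 24 h against 4 h 6 and 1 (median 0.32).

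In the siRNA experiment 15 of these target genes were tested. Under enzalutamide in siControl cells 3 rose and 7 fell (median −0.17). FGF21, a metabolic hormone, was at 0.736, 0.440 and 0.856 RPKM in vehicle and at 5.36, 5.40 and 6.02 RPKM under enzalutamide, a log2 fold change of 2.91 given as a description, since only the second group brought its mean over the 1 RPKM needed to be named. In siGATA2 cells limma called 0 (2 at an unadjusted p below 0.05, median 0.04). The interaction was called for 5 higher and 3 lower (median 0.19), siGATA2 against siControl in vehicle for 2 and 9 (median −0.21), and under enzalutamide for 4 and 6 (median −0.09).

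Genes of glucose uptake and glucose 6-phosphate, the signal that MondoA and ChREBP read, were counted likewise. After 24 h of DHT 7 of 13 rose and 2 fell, against 26.9% and 23.2% of all genes (median 0.19). HK2, a hexokinase, was at 0.99 (SE 0.0446, edgeR adjusted p = 1.56e-09). SLC2A1, the GLUT1 glucose transporter on which TXNIP acts, was at 0.47 (SE 0.0476, edgeR adjusted p = 2.81e-06). Those that fell were SLC2A13, at −0.75 (SE 0.174, edgeR adjusted p = 0.00304), and SLC2A6, at −0.21 (SE 0.0673). After 4 h of DHT 2 rose and 0 fell (edgeR, 4 at an unadjusted p below 0.05, median −0.07), with SLC2A12, a glucose transporter, at 1.1. Enzalutamide for 24 h gave 1 higher and 4 lower (median −0.09). DHT against enzalutamide at 24 h gave 8 and 2 (median 0.34), and DHT 24 h against 4 h 6 and 2 (median 0.18). In siControl cells enzalutamide gave 3 higher and 6 lower of 16 (median −0.04), and in siGATA2 cells limma called 0 (3 unadjusted, median −0.06). The interaction gave 3 and 2 (median −0.02), siGATA2 against siControl in vehicle 7 and 3 (median 0.07), and under enzalutamide 6 and 4 (median 0.00).

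**Figure D5:**
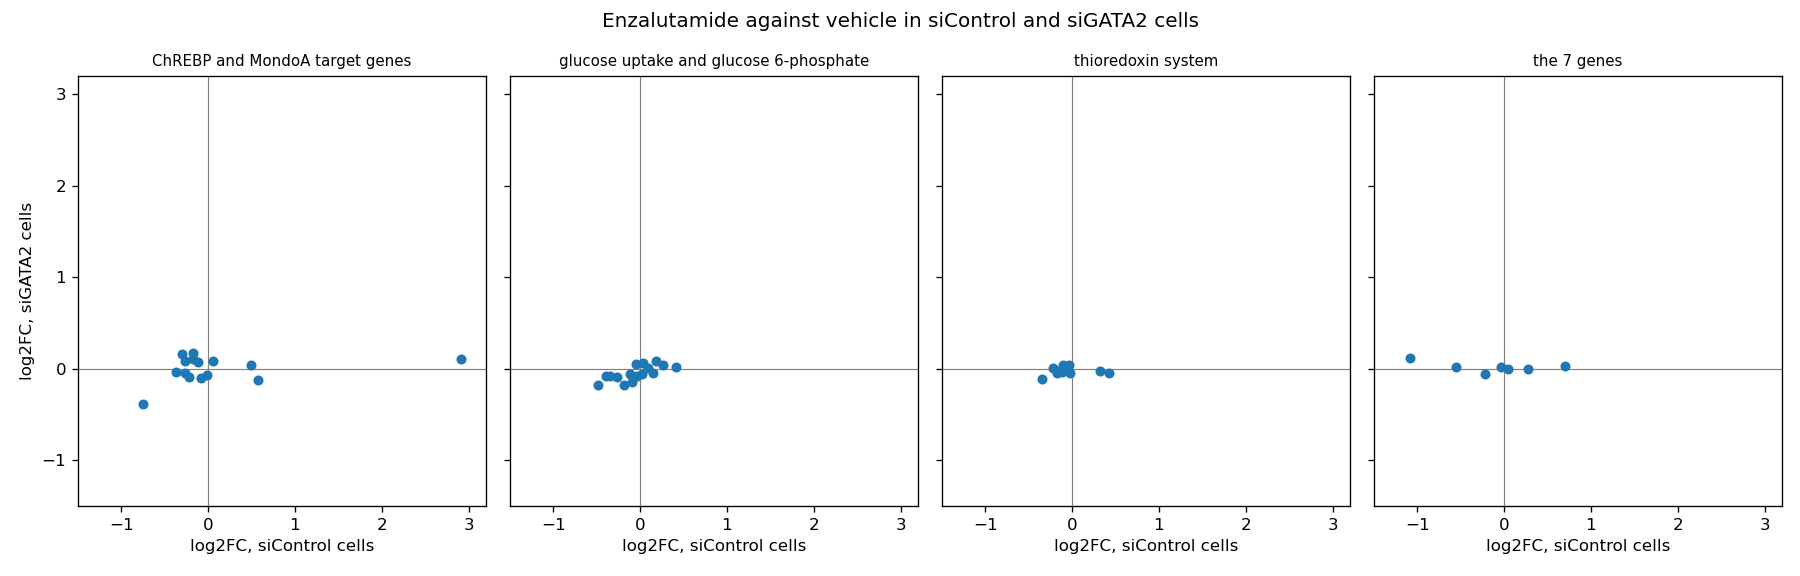
Log2 fold change (log2FC) of enzalutamide against vehicle in siControl cells (horizontal) and siGATA2 cells (vertical) for 3 gene lists and the 7 genes; each point is a gene. The 7 genes spread from −1.08 to 0.70 horizontally and from −0.06 to 0.12 vertically, and FGF21 lies far right at 2.91.

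The thioredoxin system, whose central protein TXNIP binds, had 11 genes tested. After 24 h of DHT 3 rose and 2 fell, near the 26.9% and 23.2% of all genes (median 0.06), after 4 h of DHT edgeR called 0 (2 unadjusted, median 0.02), and after 24 h of enzalutamide 2 rose and 4 fell (median −0.03). DHT against enzalutamide at 24 h gave 5 and 2 (median 0.04), and DHT 24 h against 4 h 2 and 1 (median 0.04). Enzalutamide in siControl cells gave 2 and 6 (median −0.10), and in siGATA2 cells limma called 0 (1 unadjusted, median −0.02). In vehicle, siGATA2 cells differed from siControl in 3 higher and 6 lower (median −0.14). Among the lower were TXNRD1, a thioredoxin reductase, at −0.81 (SE 0.0232, limma adjusted p = 9.99e-10) and TXN, thioredoxin itself, at −0.58 (SE 0.0406, adjusted p = 5.15e-07). The higher were PRDX5 at 0.50 (SE 0.0705), TXN2 at 0.33 (SE 0.0377) and PRDX3 at 0.13 (SE 0.0293). Under enzalutamide siGATA2 gave 3 and 5 (median 0.03), and the interaction 3 and 2 (median 0.08).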

How the data were processed

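RNA-seq was read for 12 ligand samples and 12 siRNA samples. Per the submitters' processing notes the authors aligned reads with TopHat2 2.0 to hg19 and quantified genes in Partek. The ligand files hold estimated counts, deposited by the authors without normalization, and the siRNA files hold RPKM that the authors computed and deposited. The annotation is not given in the sources used here. Genes missing from a ligand table, which lists only genes above 0, were set to 0.

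Ligand counts were rounded and tested with edgeR 4.0.16 (quasi-likelihood, TMM factors, filterByExpr) in R 4.3.3, in 1 model of 5 conditions. log2(RPKM + 0.1) was tested with limma 3.58.1 in 1 model of 4 conditions with a trend in the variance, and genes had to exceed 0 in 3 or more libraries. Alternatives included DESeq2 1.42.0, other scalings, filters and pseudocounts, a replicate block and leaving out each library.

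The members and gene lists were chosen with earlier results of these data known. Beyond the members, named genes are up to 3 called genes in each direction per list with the largest change, at a mean of at least 1 CPM or RPKM, and the genes most like or opposite to TXNIP and ARRDC4, of which 1 is withheld and not reported here. Lists of other arrestins, NEDD4-family ligases and the MYC network are given at the end.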

Additional observations from a re-analysis of the deposited data

Results flagged for a closer look

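The response to enzalutamide differed between siGATA2 and siControl cells for 4 genes by limma's interaction term, given as the log2 fold change in siGATA2 cells minus that in siControl cells. TXNIP had a difference of 1.20 (adjusted p = 3.72e-05). ARRDC3 had a difference of −0.67 (adjusted p = 7.24e-05). ARRDC4 had a difference of 0.58 (adjusted p = 0.00263). MLXIP had a difference of 0.15 (adjusted p = 0.0354), and its call was lost in the 8 leave-outs named above, with no variance trend (0.0556) and with median rescaling (0.0764).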

How the results depend on the processing

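Over 101 results, 2052 alternative values were computed, under 19 settings and 22 that leave out a library. None reversed a called value. Of the values, 1948 stayed the same, 49 lost a call, 15 gained a call and 40 moved. Tested values were judged by whether their call was kept. Untested values and those within a header prefix were judged against the spread between replicates. Counts of members called were judged by their ratio to the main count. Among uncalled values 32 changed sign. A library left alone in its group was assumed to vary like the other groups. Each ligand condition had 2 libraries and the absolute siRNA depth is unknown, and the MLXIPL calls of 0.28 and −0.26 depended on single libraries.

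TXNIP after 24 h of 10 μM enzalutamide was called with vehicle replicate 1 from 1 column alone (0.09, adjusted p = 0.0382) and with library size alone (0.09, 0.0459), and leaving out libraries gave 0.05 to 0.10. Leave-outs gave −0.15 to −0.11 for TXNIP and −0.24 to −0.21 for ARRDC4 after 4 h of DHT, −0.74 to −0.70 for TXNIP after 4 h of enzalutamide, 0.78 to 0.83 between its 24 h and 4 h libraries, and 0.08 to 0.20 in siGATA2 against siControl vehicle. Within the header prefix TXNIP averaged −0.76 after 4 h of enzalutamide and −0.84 after 24 h of DHT. The count of members called ran from 1 to 3 over leave-outs both for enzalutamide 24 h and for DHT 4 h against vehicle. MLX under enzalutamide in siControl cells was called after median rescaling (0.10, adjusted p = 0.0366). The cause of these shifts was not tested.

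With the study's thresholds, a change of over 2-fold and a p below 0.05, read here as unadjusted because the study does not say, members called were 0 for enzalutamide 24 h, 0 for DHT 4 h, 1 for DHT 24 h, 1 for DHT against enzalutamide at 24 h, 0 for DHT 24 h against 4 h, 1 for enzalutamide in siControl cells, 1 for siGATA2 under enzalutamide and 1 for the interaction. For siGATA2 in vehicle 2 remained of 3. In the ligand comparisons with 0, edgeR had 4, 3 and 4 members at an unadjusted p below 0.05, in that order. Over all genes these thresholds gave 449 in place of 5194, 186 in place of 1053, 911 in place of 7783, 1840 in place of 10092, 706 in place of 7746, 434 in place of 8582, 1177 in place of 11096 and 368 in place of 5264, in that order, 39 in place of 84 for enzalutamide in siGATA2 cells and 1149 in place of 11322 for siGATA2 in vehicle. The siRNA counts depend on the pseudocount: with 1 and 0.01 RPKM they were 173 and 1044 for enzalutamide in siControl cells, 0 and 230 in siGATA2 cells, 434 and 2203 for siGATA2 in vehicle, 446 and 2212 under enzalutamide, and 119 and 922 for the interaction. All-gene calls also moved without single libraries: 570 to 655 in place of 1053 for DHT 4 h, 3098 and 3436 in place of 5194 for enzalutamide 24 h, and 27 to 55 in place of 84 for enzalutamide in siGATA2 cells, where fitting the compared conditions alone gave 24. With library size alone 42.1% of DHT 24 h calls were higher, in place of 53.7%. Other splits turned: DHT 24 h against 4 h from 4098 higher and 3648 lower to 3473 and 4343 and enzalutamide 24 h from 2549 and 2645 to 2648 and 2607 with library size alone, DHT against enzalutamide at 24 h from 4864 and 5228 to 5164 and 4874 with RLE factors and to 4666 and 4174 with DESeq2, and enzalutamide in siControl cells from 3612 and 4970 to 4334 and 4257 with median rescaling.

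The groups share replicate numbers. Deviations of same-numbered libraries were first correlated over all genes tested: −0.0956 to 0.105 in the ligand and −0.0714 to 0.0647 in the siRNA experiment, so the numbers were not taken to pair the samples. The same check over genes averaging at least 1 CPM or RPKM was run later, after the calls with the block had been seen. It gave −0.131 to 0.153 and −0.342 to 0.28, and the 3 pairs of siGATA2 against siControl under enzalutamide had 0.113, 0.241 and 0.148. Of 6 libraries in each siRNA comparison, 1, 3, 0 and 4 were closest to their own number. With the replicate block 1 member was called for enzalutamide 24 h in place of 2 (MLX was not called, adjusted p = 0.0557), and 6 for siGATA2 under enzalutamide as without it. The block changed no other member's call, and over all genes it gave 29 calls in place of 84 for enzalutamide in siGATA2 cells. Because of the −0.131, for DHT against enzalutamide at 4 h, crossed numbers were also fitted there, chosen after seeing the data, and that fit supports no result here.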

Other observations

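Of the other arrestin genes 3 were tested in the ligand experiment (ARRDC1, ARRB1 and ARRB2). After 24 h of DHT 2 rose and 0 fell in edgeR (2 at an unadjusted p below 0.05), with ARRDC1 at 0.33 (SE 0.0622). After 4 h of DHT 0 rose and 2 fell (edgeR, 2 unadjusted), and after 24 h of enzalutamide 1 rose and 1 fell. DHT against enzalutamide at 24 h gave 1 higher and 0 lower (edgeR, 2 unadjusted), and DHT 24 h against 4 h 2 and 0 (edgeR, 2 unadjusted). In siControl cells enzalutamide gave 1 and 1 of 4, and limma called 0 in siGATA2 cells (2 unadjusted). siGATA2 against siControl gave 1 and 1 in vehicle and 1 and 1 under enzalutamide, and the interaction 1 and 1.

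The NEDD4-family ubiquitin ligases, which arrestins bring to their cargo, had 8 genes tested with DHT. At 4 h 4 rose and 0 fell (edgeR, 6 unadjusted, median 0.25), with NEDD4L at 0.76 (SE 0.0312, adjusted p = 3.62e-09), and at 24 h 3 rose and 1 fell (median 0.08). From 4 to 24 h of DHT 0 rose and 6 fell (edgeR, 6 unadjusted, median −0.20), against 26.3% and 23.5% of all genes, and DHT against enzalutamide at 24 h gave 2 higher and 3 lower (median 0.06). Enzalutamide gave 1 and 1 at 24 h (median 0.03) and 1 and 1 of 9 in siControl cells (median 0.00), and in siGATA2 cells limma called 0 (0 unadjusted). Against siControl in vehicle, siGATA2 gave 4 higher and 1 lower (median 0.05), under enzalutamide 3 and 1 (median 0.04), and the interaction 1 and 0 (limma, 1 unadjusted, median −0.02).

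The MYC, MAX and MXD network, which binds E-boxes as MLX does, had 9 genes tested. After 24 h of DHT 3 rose and 2 fell (median −0.04), after 4 h of DHT edgeR called 0 (4 unadjusted, median −0.07), and after 24 h of enzalutamide 1 rose and 2 fell (median 0.07). DHT against enzalutamide at 24 h gave 2 higher and 3 lower (median −0.11), and DHT 24 h against 4 h 4 and 4 (median 0.13). In siGATA2 against siControl vehicle 2 were higher and 4 lower (median −0.15), with MYC at −1.72 (SE 0.0433, limma adjusted p = 4.43e-10) and MXD1 at 1.38 (SE 0.0478, adjusted p = 3.53e-09). Enzalutamide gave 3 and 4 in siControl cells (median −0.12), and limma called 0 in siGATA2 cells (3 unadjusted). Under enzalutamide siGATA2 gave 3 and 5 (median −0.12), and the interaction 3 and 2 (median −0.03).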
